A study of Mus musculus with 15 samples.

Results

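The libraries described here are the sorted germ cells of mice that lack Akt1s1, compared between adults and pups at postnatal day 3 (3 dpp). They were chosen by their titles: the 3 libraries of knockout (KO) adults (libraries 10, 11 and 12) were set against the 2 libraries of KO pups at 3 dpp (libraries 16 and 18), and all genes with a signal of 1 or more in at least 2 of these 5 libraries were tested. This gave 16487 of the 27128 genes listed, and 5 of the 15 libraries of the series. Animals of both KO groups were labelled Pou5f1-Gfp;Akt1s1 null, so adults and pups shared the null Akt1s1 allele and a GFP transgene under the Pou5f1 promoter. The adults were 2 to 3 months old. Cells were labelled primary spermatogonia and were taken from testes by sorting after digestion with collagenase, DNase I and trypsin. The 3 libraries of KO pups at 7 dpp (4, 5 and 6), the 2 of wild-type (WT) adults (7 and 9), the 3 of WT pups at 3 dpp (13, 14 and 15) and the 2 of WT pups at 7 dpp (2 and 3), all labelled with the same transgene, entered the same fit and are given where they bear on a value. No label says whether 2 libraries came from separate animals, so a p-value here measures the spread between libraries, which may be technical.

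Akt1s1 encodes PRAS40, a subunit and inhibitor of mTORC1, the kinase complex that couples growth factors and amino acids to translation and cell growth. In the neonatal testis the germ cells are prospermatogonia that are turning into spermatogonia. Undifferentiated spermatogonia, which include the stem cells, respond to GDNF from Sertoli cells through the receptors GFRA1 and RET, and retinoic acid drives them into KIT-positive differentiating stages and then into meiosis. In the adult testis all later stages, from spermatocytes to elongating spermatids, are present beside the spermatogonia.

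Each deposited number is taken as a gene's signal corrected for transcript length, so levels can be set side by side between genes. Values are given in library order, 10, 11 and 12 for KO adults and 16 and 18 for KO 3 dpp. Changes are log2 of signal + 1 with their standard error, adult minus 3 dpp, from limma with Benjamini-Hochberg adjustment over all 16487 genes, and a gene is called at an adjusted p under 0.05. These changes understate those of genes with a low signal. The number of reads behind a value is unknown. A summed marker signal in sorted cells does not separate the number of cells of a type from the RNA per cell, so fewer cells and less RNA per cell cannot be told apart.

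Akt1s1 RNA was still measured in the KO libraries. Its signal was 43.1, 45.2 and 47.4 in KO adults, against 35.2 and 33.4 at KO 3 dpp, a change of 0.39 ± 0.10 (adjusted p = 0.0055). WT adults had 67.9 and 67.1, and WT 3 dpp pups had 52.4, 51.0 and 49.4. All 5 KO values lay below the 5 WT values, and the part of the gene that the null allele lacks is not given in the labels, so these values do not check it. Pou5f1, the gene whose promoter drove the sorting marker, had 213, 271 and 139 in KO adults and 141 and 164 at KO 3 dpp; the groups overlapped and it was not called (0.39 ± 0.38, adjusted p = 0.39). Some germ cell genes were high in every library: Dmrt1, a transcription factor of spermatogonia, lay between 640 and 795, and Uchl1, a ubiquitin hydrolase of spermatogonia, between 1820 and 2094. Ddx4, the germ cell RNA helicase, lay between 360 and 528. It was called lower in KO adults on the deposited scale, and its change had the other sign after quantile normalization (0.10). The libraries also held RNA of other cells. Library 10 had the highest summed signal of the KO adults for spermatids, Leydig cells and macrophages, and library 18 had more Sertoli cell signal than library 16; these values stand beside the results they touch. Across genes, KO adult libraries correlated with each other at r = 0.971 to 0.985, the 3 dpp pair at 0.974, and libraries of different groups at 0.847 to 0.901.

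Most of the transcriptome differed between KO adults and KO 3 dpp pups. Of 16487 genes, 9870 (59.9%) were called, 5331 higher in adults (32.3%) and 4539 lower (27.5%), and 2446 were at least 2-fold higher (14.8%) and 1763 at least 2-fold lower (10.7%). Among the called genes, 1423 were provisional gene models, which are counted and not named. The median change of all genes was 0.06. Deposited totals were lower in KO adults (896543 to 917815) than at KO 3 dpp (1183294 and 1178330), and scaling each library to the same total moved the median to 0.39 and the split to 8082 higher and 2578 lower. All changes below are on the deposited scale and are to be read against such a shift. Counts of genes called in a list are to be read beside the shares of all genes, 32.3% higher and 27.5% lower. Library 18 had 8.18% of its signal in its 10 highest genes, library 16 had 6.10%, and KO adults had 4.12 to 4.41%.

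**Figure D1:**
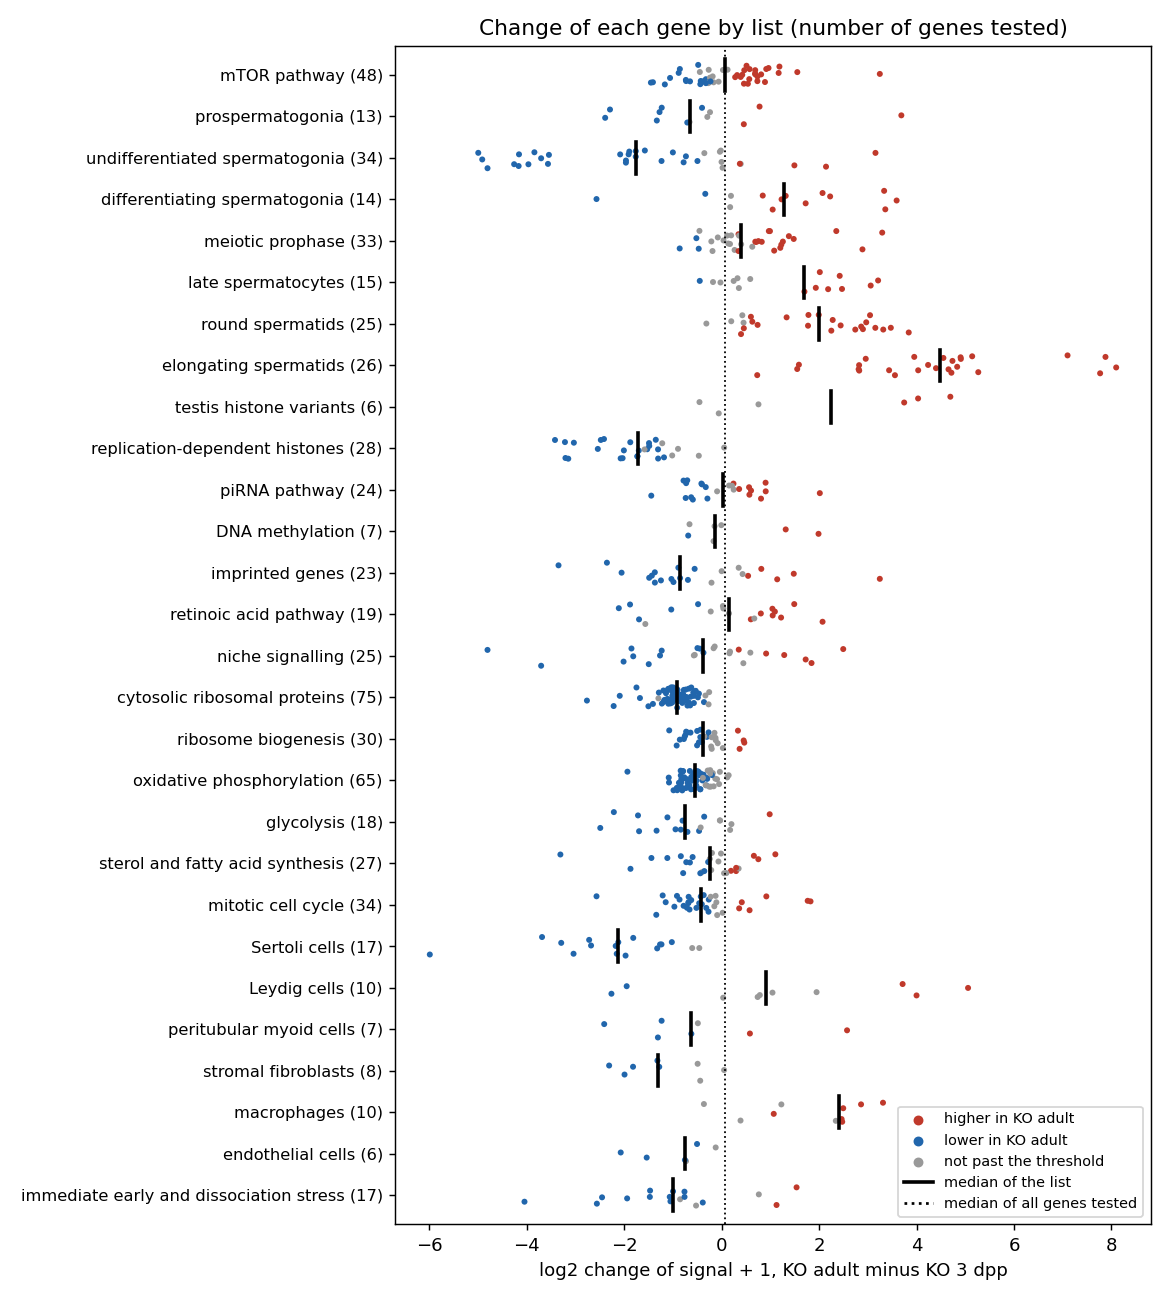
Each point is 1 gene of the list named at the left, placed by its log2 change on the x axis (KO adult minus KO 3 dpp, log2 of signal + 1), with the median of each list marked. Spermatid genes lay to the right (elongating median 4.47, round 1.99) and undifferentiated spermatogonia (-1.76), replication histones (-1.71) and Sertoli genes (-2.12) to the left.

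Genes of undifferentiated spermatogonia were much lower in KO adult cells than in KO 3 dpp cells. Of 34 genes listed and tested, 24 were lower, 4 were higher and 6 were not called, with a median of -1.76. All 11 receptors and surface proteins were lower. Gfra1, the GDNF co-receptor, had a signal of 5.92, 5.49 and 4.78 in KO adults, against 164 and 192 at KO 3 dpp (-4.81 ± 0.53, adjusted p = 7.4e-06). Ret, its signalling partner, had 12.2, 13.7 and 9.45 in KO adults, against 155 and 173 at KO 3 dpp (-3.70 ± 0.35, adjusted p = 2.4e-06). The 2 groups did not overlap for either gene. The surface markers Cd9, Itga6, Mcam, Thy1 and Sdc4 changed by -1.76, -1.76, -1.97, -3.55 and -2.08, and the adhesion molecule Epcam by -0.73 ± 0.18. Several transcription factors and signalling inhibitors of the list were lower as well. Etv5, an ETS factor needed for stem cell maintenance, had 5.10, 5.90 and 4.08 in KO adults, against 184 and 196 at KO 3 dpp, a mean 37.8-fold lower in adults (adjusted p = 9e-06). Lhx1, a LIM homeobox factor, had at most 0.496 in KO adults, against 34.2 and 50.1 at KO 3 dpp (-4.91 ± 0.51). Bcl6b, a transcriptional repressor, changed by -3.84 ± 0.30, and Dusp6 and Spry4, feedback inhibitors of the ERK pathway, by -4.17 ± 0.27 and -4.16 ± 0.48. Etv4, a close relative of Etv5, was among the 12 lowest genes of the whole table, with 10.8, 10.6 and 9.35 in KO adults, against 229 and 307 at KO 3 dpp (-4.57 ± 0.53).

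Id4, an inhibitor of basic helix-loop-helix factors, had 14.2, 11.7 and 8.82 in KO adults, against 198 and 187 at KO 3 dpp (-3.97 ± 0.36). Foxc2 had 3.38, 5.25 and 3.69 in KO adults, against 106 and 85.9 at KO 3 dpp (-4.26 ± 0.48). The RNA-binding protein gene Nanos2 (-1.96 ± 0.36) and the transcription factor genes T (-3.56 ± 0.46), Eomes (-1.90 ± 0.28) and Pax7 (-1.23 ± 0.21) were lower at signals that did not exceed 1.62 in any adult library. Not all members fell. Zbtb16, which encodes PLZF, had 65.2, 66.2 and 55.9 in KO adults and 77.0 and 51.5 at KO 3 dpp (-0.02 ± 0.16, adjusted p = 0.93), and Foxo1 and Lin28a were likewise not called, at 0.00 ± 0.12 and 0.02 ± 0.13. The 4 members called higher were Neurog3, Upp1, Taf4b and Sox3. Neurog3, a basic helix-loop-helix factor, had 18.3, 22.3 and 14.3 in KO adults, against 0.615 and 1.81 at KO 3 dpp (3.16 ± 0.42, adjusted p = 3.3e-05). Upp1, uridine phosphorylase, had 41.9, 44.0 and 32.5 in KO adults, against 11.0 and 5.90 at KO 3 dpp (2.14 ± 0.36). Taf4b, a TFIID subunit, rose by 0.37 ± 0.08, and Sox3 by 1.49 ± 0.39, a call that was lost without library 18 (1.09, adjusted p = 0.075).

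**Figure D2:**
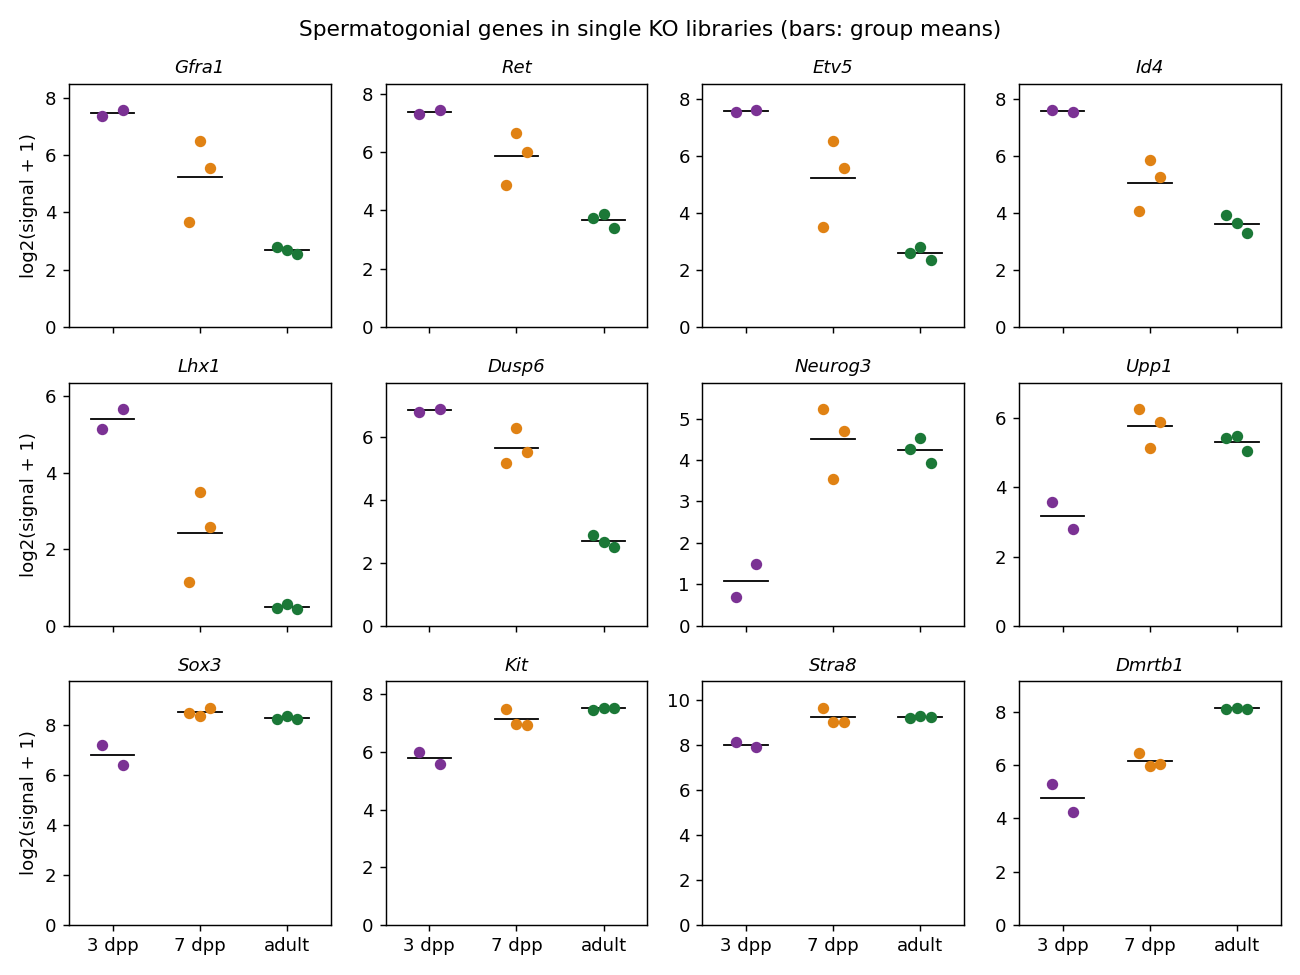
Log2 of signal + 1 of 12 spermatogonial genes in each KO library at 3 dpp, 7 dpp and in adults, 1 point a library, with bars at the group means. Gfra1, Ret, Etv5, Id4, Lhx1 and Dusp6 run downward with age, and Kit runs upward. Neurog3 lies above its 3 dpp values at both later ages, without a steady rise.

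The 7 dpp libraries of KO pups lay between the other ages for Gfra1, Etv5 and Id4, with a wide spread. Gfra1 averaged 178 ± 19.3 at 3 dpp, 49.0 ± 39.1 at 7 dpp and 5.40 ± 0.578 in adults (SD, n = 2, 3 and 3 libraries). Etv5 averaged 190 ± 8.56, 49.9 ± 40.8 and 5.03 ± 0.914 at the same ages, and Id4 192 ± 7.94, 37.0 ± 20.8 and 11.6 ± 2.68. Library 4 was the lowest 7 dpp library for all 3 genes and library 5 the highest. Neurog3 was already up at 7 dpp, at 1.22 ± 0.849, 24.2 ± 13.1 and 18.3 ± 4.00, and Kit averaged 55.1 ± 11.4, 142 ± 33.0 and 182 ± 5.59.

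Genes of differentiating spermatogonia were higher in KO adults: 10 of 14 were called higher and 2 lower (1 without library 16), with a median of 1.27. Kit, the receptor of stem cell factor, had 176, 185 and 186 in KO adults, against 63.1 and 47.1 at KO 3 dpp (1.72 ± 0.15, adjusted p = 1.5e-06). Stra8, the retinoic acid-induced gene needed for meiotic entry, had 591, 627 and 597 in KO adults, against 278 and 238 at KO 3 dpp (1.23 ± 0.18). Both genes were clear of overlap. Larger changes were seen for Dmrtb1, a regulator of the switch from mitosis to meiosis (279, 288 and 279 in KO adults, against 38.7 and 18.2 at KO 3 dpp; 3.36 ± 0.28), and for the X-linked homeobox gene Esx1 (117, 162 and 157, against 9.06 and 13.4; 3.59 ± 0.27). Prss50, a testis protease, had 59.3, 104 and 124 in KO adults, against 7.30 and 9.11 at KO 3 dpp. Library 10, the library with the most spermatid signal, was the lowest of the adults for Prss50, Esx1 and Kit, and was the highest adult for none of the 14 genes. Sohlh1 and Dmrt1 were not called (0.19 ± 0.09 and 0.17 ± 0.14). The clearest member in the other direction was Ccnd2, a D cyclin, with 36.4, 38.1 and 30.1 in KO adults, against 203 and 218 at KO 3 dpp (-2.57 ± 0.19, adjusted p = 4.8e-07).

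Retinoic acid genes did not move as a block: 8 of 19 were higher and 5 lower, with a median of 0.15. Among all genes tested, 32.3% were higher and 27.5% lower. Without library 18 the number of retinoic acid genes lower was 3 and the median 0.40. Rarg, the retinoic acid receptor of differentiating spermatogonia, had 70.4, 72.9 and 62.3 in KO adults, against 19.6 and 12.2 at KO 3 dpp (2.07 ± 0.25). Crabp1, a cytosolic retinoic acid-binding protein, had 665, 753 and 737 in KO adults, against 369 and 326 at KO 3 dpp (1.05 ± 0.15), and Cyp26b1, which clears retinoic acid, changed by 1.49 ± 0.29 and Aldh1a2, which makes it, by 1.04 ± 0.22. Rara changed the other way, by -0.48 ± 0.10. Rxrg, a partner receptor, had at most 0.624 in KO adults and 4.25 in both 3 dpp libraries (-1.88 ± 0.38).

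The first genes of meiosis were also higher in KO adults. Of 33 meiotic prophase genes tested, 17 were higher and 3 lower, with a median of 0.40 (0.60 without library 18). All 5 genes of meiotic entry were higher, with a median of 2.35. Meioc, an RNA regulator that keeps cells in prophase, had 60.1, 76.1 and 86.5 in KO adults, against 6.34 and 6.83 at KO 3 dpp (3.29 ± 0.22, adjusted p = 2.8e-07). Prdm9, the histone methyltransferase that places recombination sites, had 11.0, 20.1 and 18.6 in KO adults, against 1.38 and 1.23 at KO 3 dpp (2.89 ± 0.27). Bhmg1, also known as Meiosin and a partner of STRA8, had 31.8, 61.2 and 66.9 in KO adults, against 6.57 and 12.6 at KO 3 dpp (2.35 ± 0.45), and Ythdc2, the partner of MEIOC, changed by 1.48 ± 0.14. For Meioc, Prdm9, Bhmg1 and Ythdc2, library 10 was the lowest of the adults, while it was the highest for spermatid genes. Structural genes changed less. Sycp1 and Sycp3, parts of the synaptonemal complex, had 200, 219 and 225 and 291, 338 and 336 in KO adults, against 120 and 99.0 and 188 and 137 at KO 3 dpp (0.97 ± 0.11 and 0.99 ± 0.12). The cohesin subunit Smc1b had 182, 195 and 190 in KO adults, against 116 and 114 at KO 3 dpp (0.71 ± 0.09), whereas Rec8 and Stag3 were not called (0.27 ± 0.16 and 0.14 ± 0.08). Of 15 recombination genes, 7 were higher, among them Tex11 (0.69 ± 0.12), Mei1 (1.26 ± 0.26) and Mei4 (0.82 ± 0.15), and 2 were lower, Rec114 (-0.86 ± 0.20) and Ccnb1ip1 (-0.47 ± 0.13). Dmc1, the meiotic recombinase, had 44.4, 50.1 and 55.6 in KO adults and 46.8 and 45.4 at KO 3 dpp, which overlapped.

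The RefSeq promoters of 27 listed meiotic prophase genes (GRCm38.p6, 250 bases before to 50 after the start) were searched for 12 short motifs on both strands. The motif GCGGGAA, an E2F-type sequence, was in 12 of the 27 (44.4%), against 5.29% of all 27025 genes; it was the motif with the highest share of the 12 searched, chosen after the shares were seen. CACGTG was in 29.6% of them, against 8.09% of all. Of the 12, Meioc, Prdm9, Smc1b, Sycp3 and Syce2 were higher in KO adults, and the call of Syce2 was lost without library 18 (log2 change 0.30). Shown are the 3 of these 5 with the smallest adjusted p in limma among genes with 1 promoter window, which leaves out Prdm9. They belong 1 each to meiotic entry, cohesin and the synaptonemal complex. Each is given as the 250 bases up to the start with the match in capitals (its reverse complement for Smc1b). The lines are Meioc (chr11:102665335-102665584, plus strand, match from -228), Smc1b (chr15:85131958-85132207, minus strand, from -48) and Sycp3 (chr10:88459337-88459586, plus strand, from -147).
Meioc: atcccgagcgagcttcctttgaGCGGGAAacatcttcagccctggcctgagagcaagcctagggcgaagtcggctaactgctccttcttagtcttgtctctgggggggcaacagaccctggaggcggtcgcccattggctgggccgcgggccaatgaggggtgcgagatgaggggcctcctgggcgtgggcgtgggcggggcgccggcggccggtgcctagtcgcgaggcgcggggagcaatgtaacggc
Smc1b: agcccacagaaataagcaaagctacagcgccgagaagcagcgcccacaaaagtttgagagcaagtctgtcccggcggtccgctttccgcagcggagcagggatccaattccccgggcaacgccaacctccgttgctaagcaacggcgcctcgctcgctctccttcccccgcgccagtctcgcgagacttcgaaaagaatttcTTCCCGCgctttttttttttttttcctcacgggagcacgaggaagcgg
Sycp3: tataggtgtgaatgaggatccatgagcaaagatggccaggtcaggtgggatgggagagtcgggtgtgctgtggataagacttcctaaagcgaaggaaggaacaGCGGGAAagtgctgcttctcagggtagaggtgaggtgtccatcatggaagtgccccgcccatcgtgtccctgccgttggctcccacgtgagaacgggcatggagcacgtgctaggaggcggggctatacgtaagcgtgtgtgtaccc
The match is a description of letters. Of the other 7 genes with it, Rec114 was lower, Stag3, Tex12, Hormad1, Spata22 and Msh5 were not called, and Rnf212 was not analysed here.

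Spermatid RNA set KO adult libraries apart from KO 3 dpp libraries more than any other list tested. All 26 elongating spermatid genes were higher in adults, with a median of 4.47, and all 26 were free of overlap; 72.7% of all genes tested were. Prm2, a protamine that packs sperm DNA, had 1486, 640 and 659 in KO adults, against 1.76 and 2.54 at KO 3 dpp (8.10 ± 0.42, adjusted p = 1.2e-07), the largest change among the genes named by rule. Prm1, the other protamine, had 1504, 717 and 745 in KO adults, against 3.67 and 2.36 at KO 3 dpp (7.88 ± 0.49). Tnp2, a transition protein that replaces histones before the protamines, had 1028, 617 and 496 in KO adults, against 2.40 and 1.87 at KO 3 dpp (7.77 ± 0.47). For each of the 3 genes library 10 held the most signal, and the groups were far from overlapping.

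These 3 genes lie close together on chromosome 16. Their promoters are shown for the TATAA match that each holds near the start, on either strand; TATAA was in 9 of 23 elongating spermatid promoters (39.1%) and in 28% of all. The lines give 250 bases up to the start on the minus strand, with the match in capitals, for Prm2 (chr16:10792106-10792355, match from -30), Prm1 (chr16:10796824-10797073, from -32) and Tnp2 (chr16:10788656-10788905, from -33).
Prm2: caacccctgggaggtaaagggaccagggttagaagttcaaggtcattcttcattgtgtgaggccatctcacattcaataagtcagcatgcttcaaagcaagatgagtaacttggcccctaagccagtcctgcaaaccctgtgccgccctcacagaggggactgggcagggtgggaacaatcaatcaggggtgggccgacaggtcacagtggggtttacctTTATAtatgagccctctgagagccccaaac
Prm1: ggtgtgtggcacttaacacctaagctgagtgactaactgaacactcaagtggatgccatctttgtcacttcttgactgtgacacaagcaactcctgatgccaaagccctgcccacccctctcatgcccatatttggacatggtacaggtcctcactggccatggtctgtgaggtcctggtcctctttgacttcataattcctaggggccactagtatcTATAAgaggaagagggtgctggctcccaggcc
Tnp2: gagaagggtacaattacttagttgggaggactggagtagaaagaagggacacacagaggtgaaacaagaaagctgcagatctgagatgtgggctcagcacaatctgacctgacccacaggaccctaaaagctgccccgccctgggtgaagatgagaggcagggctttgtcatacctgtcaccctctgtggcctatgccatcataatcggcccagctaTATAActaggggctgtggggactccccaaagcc

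Smcp, of the mitochondrial capsule of sperm, had 335, 152 and 170 in KO adults, against 0.651 and 0.377 at KO 3 dpp (7.10 ± 0.40). Gapdhs, the sperm form of GAPDH, changed by 4.74 ± 0.33, Akap4, of the fibrous sheath, by 4.66 ± 0.39, and Oaz3, a spermatid antizyme, by 5.14 ± 0.38. The sperm gene Txndc8 had 19.99, 9.15 and 6.64 in KO adults and was listed at 0 in both KO 3 dpp libraries, so no fold is given. Of 25 round spermatid genes, 21 were higher, 4 were not called and none was lower, with a median of 1.99 that was 0.45 over the 6 transcription genes; among them the acrosomal protease Acr had 16.2, 4.71 and 6.71 in KO adults, against 0.047 and 0 at KO 3 dpp, and the kinase Tssk6 had 43.5, 23.7 and 25.8, against 1.66 and 1.92 (3.47 ± 0.30). Of 15 late spermatocyte genes, 8 were higher and 1 lower (none without library 10, 16 or 18), with a median of 1.70, led by Insl6 (3.21 ± 0.39) and Ybx2, a translational repressor (292, 151 and 168 in KO adults, against 19.1 and 26.5 at KO 3 dpp; 3.06 ± 0.31). 3 testis histone variants, H2al2a, H2bl1 and H2ap, were listed at 0 in both KO 3 dpp libraries and lay between 9.39 and 42.3 in KO adults.

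The spermatid signal was uneven among adults. Summed over the 26 elongating spermatid genes, the signal was 6839, 3312 and 3283 in KO adults, against 129 and 150 at KO 3 dpp, and 166, 150 and 153 in KO pups at 7 dpp. It made up 0.759%, 0.361% and 0.366% of all signal in KO adults, against 0.0109% and 0.0127% at KO 3 dpp. Library 10 was the highest adult for 26 of 26 elongating, 24 of 25 round spermatid and 12 of 15 late spermatocyte genes. Without it the medians were 4.08, 1.56 and 1.35. Its Leydig cell and macrophage sums were the highest as well, while library 11, with the lowest Leydig and macrophage sums, had about the same elongating spermatid sum as library 12; the part of other cells in the spermatid signal was not tested.

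**Figure D3:**
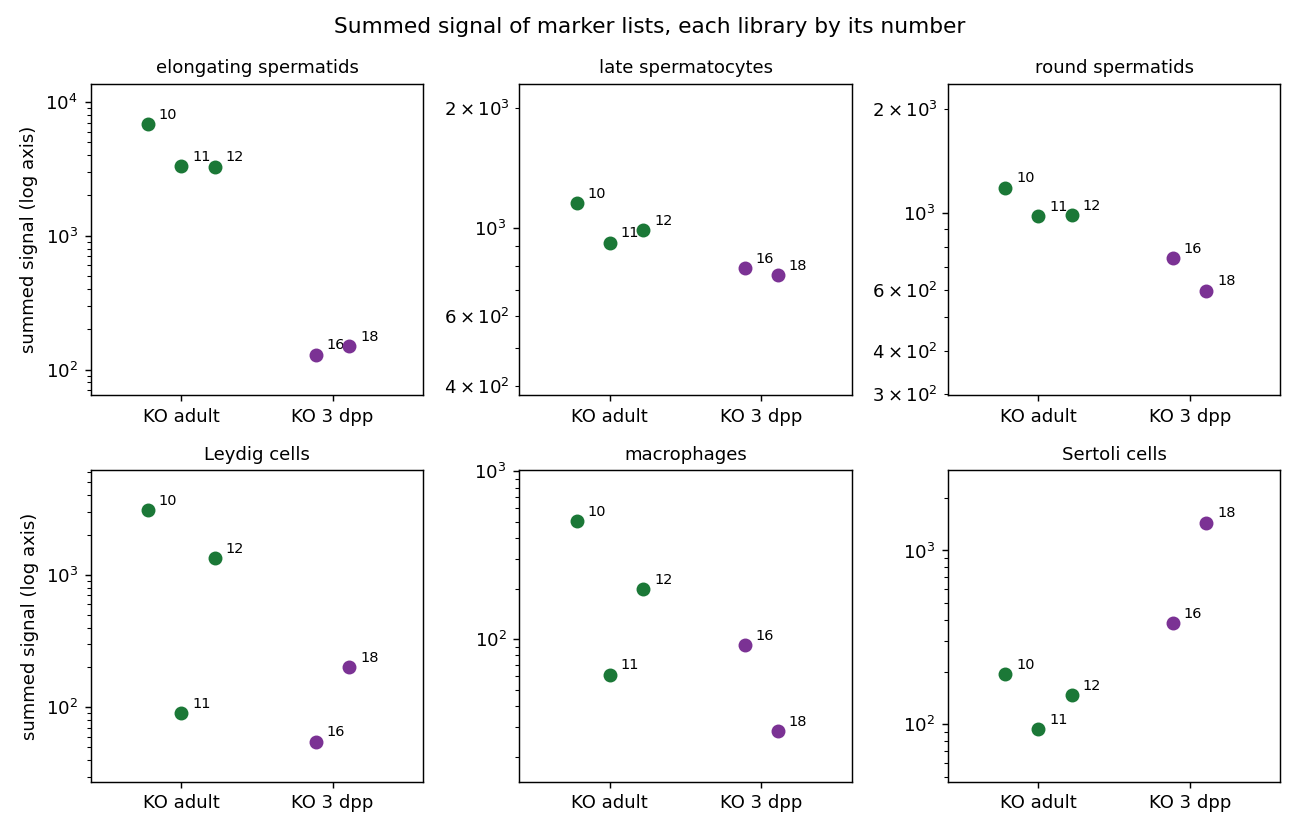
Summed signal of 6 marker lists (log axis) in KO adult and KO 3 dpp libraries, 1 point a library with its number. Elongating spermatid genes sum to 3283 or more in KO adults and to 150 or less at KO 3 dpp, and the Leydig sums of the 3 adult libraries run from 90.0 to 3073.

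Several enzymes, ribosomal proteins and other widely used proteins have a copy expressed mainly in the testis and a broadly expressed copy. Of 27 such pairs listed, 24 were in the files and 23 had both copies tested. Among the testis copies 12 were higher in KO adults and 6 lower (median 0.38), and among the broad copies 1 was higher and 16 were lower (median -0.70). Pgk2, the testis phosphoglycerate kinase, had 57.2, 22.1 and 27.0 in KO adults, against 0.710 and 1.06 at KO 3 dpp (4.16 ± 0.36), while its X-linked counterpart Pgk1 had 37.2, 36.4 and 39.1 in KO adults and 38.6 and 38.2 at KO 3 dpp (-0.03 ± 0.08). Ldhc, the testis lactate dehydrogenase, had 212, 70.8 and 79.2 in KO adults, against 7.30 and 3.54 at KO 3 dpp (4.13 ± 0.39), while Ldha was not called (-0.04 ± 0.36). Not every testis copy rose. Cyct, the testis cytochrome c, had 84.6, 76.9 and 78.0 in KO adults, against 402 and 327 at KO 3 dpp (-2.17 ± 0.13), and Cox7b2 (-0.83 ± 0.16), Rpl10l (-1.10 ± 0.14) and Rpl39l (-1.14 ± 0.10) were lower too. Library 10 was again the highest adult for Pgk2 and Ldhc, while for Gapdh, the broad partner of Gapdhs, it was the lowest, with 1457, 1629 and 1524 in KO adults, against 3357 and 3286 at KO 3 dpp (-1.11 ± 0.13). The copies of a pair are similar in sequence, so their split of reads is uncertain.

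**Figure D4:**
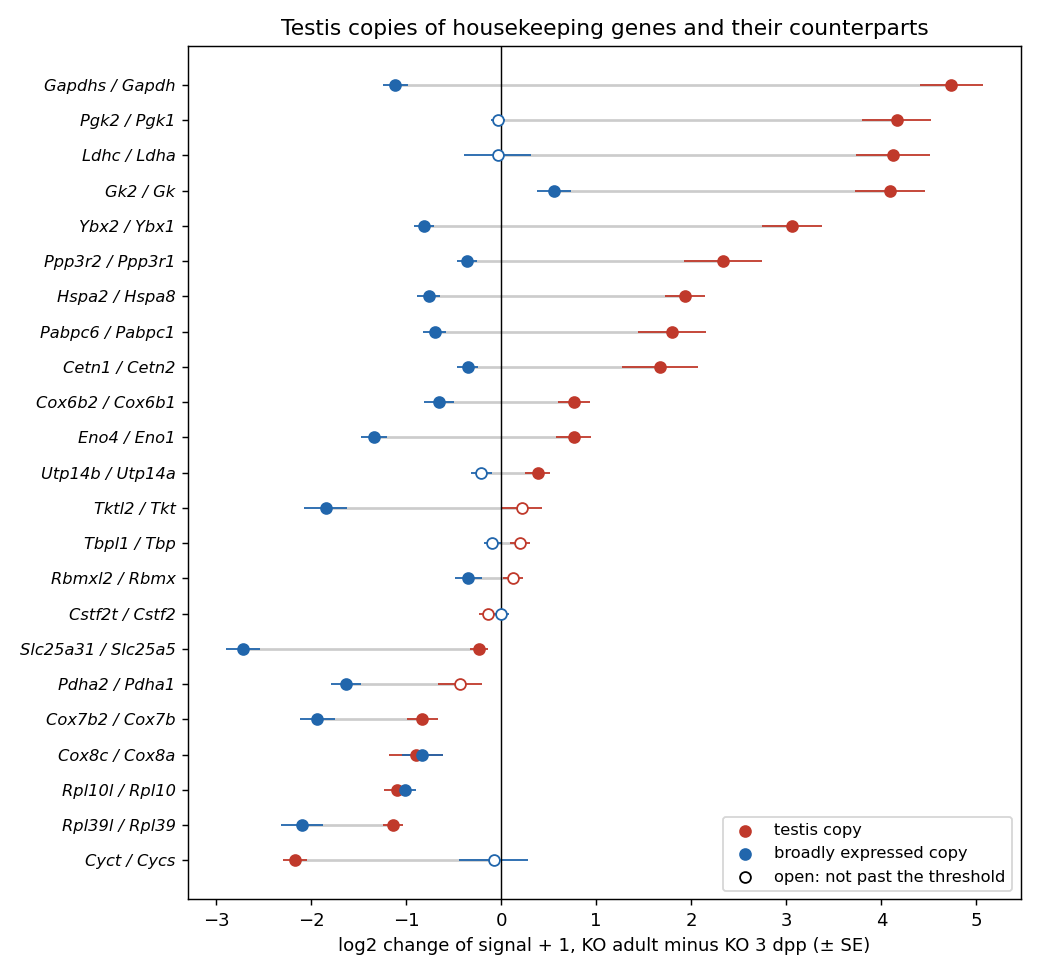
Log2 change ± SE (KO adult minus KO 3 dpp) of the testis copy (red) and the broad copy (blue) of each of 23 gene pairs, open where not called. Testis copies reach 4.74 for Gapdhs, and the broad copy with the lowest value is Slc25a5 at -2.72.

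Of the 23 broad copies, 11 are on the X chromosome, where 7 were lower and 1 higher. The median of these 11 was -0.35, a smaller fall than the -0.70 of all 23. Among the testis partners of these 11, 4 were higher and 4 lower, with a median of -0.14. Slc25a5, the X-linked ADP/ATP carrier, had 32.3, 22.4 and 24.0 in KO adults, against 182 and 169 at KO 3 dpp (-2.72 ± 0.18), and Pdha1, a pyruvate dehydrogenase subunit, had 20.6, 22.6 and 17.1, against 68.7 and 59.6 (-1.63 ± 0.16). Over the whole X chromosome, 148 of 581 genes were higher (25.5%) and 220 lower (37.9%), with a median of -0.17. On autosomes 33.5% of 13761 genes were higher and 28.6% lower, with a median of 0.05, and single autosomes had medians from -0.06 to 0.18. The X chromosome median in WT was also -0.17.

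Replication-dependent histone genes were lower in KO adults: 22 of 28 tested were lower and none higher, with a median of -1.71. H3c3 had 9.13, 14.2 and 9.40 in KO adults, against 116 and 98.9 at KO 3 dpp (-3.21 ± 0.41), H4c2 had 9.60, 6.26 and 8.49, against 76.6 and 81.1 (-3.15 ± 0.66), and H4c4 had 15.4, 8.29 and 8.44, against 52.2 and 73.5 (-2.48 ± 0.35). Library 18 exceeded library 16 for 21 of the 28. The summed signal was 225, 190 and 226 in KO adults, against 734 and 1071 at KO 3 dpp, and 226, 392.1 and 293 in KO 7 dpp pups. WT pups at 3 dpp had only 248, 262 and 307. These genes are near-identical copies and lack poly(A) tails in dividing cells, so single values are uncertain.

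Cell cycle genes were mostly lower in KO adults, 22 of 34 with 6 higher and a median of -0.42, and on equal totals the counts were 13 lower and 10 higher with a median of -0.04. Ccnd3, a D cyclin, had 81.7, 83.2 and 82.5 in KO adults, against 179 and 189 at KO 3 dpp (-1.15 ± 0.11). Cdk1 and Ccnb2, which drive mitosis, changed by -1.21 ± 0.13 and -0.97 ± 0.13. Ccne2, a cyclin of S phase entry, had 67.9, 71.0 and 78.7 in KO adults, against 22.6 and 17.3 at KO 3 dpp (1.82 ± 0.16), and Cdkn2c, a CDK inhibitor, changed by 1.77 ± 0.28. Top2a and Plk1 were not called (0.02 ± 0.11 and -0.11 ± 0.10).

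Ribosomal protein genes were mostly lower in KO adults on the deposited scale. Of 75 tested, 71 were lower, 26 of them at least 2-fold, and none higher, with a median of -0.91 and a range of -2.77 to -0.26, and they took 10.6 to 11.6% of all signal in KO adults, against 15.4% and 14.5% at KO 3 dpp. Rpl4 had 1594, 1783 and 1580 in KO adults, against 3159 and 3059 at KO 3 dpp (-0.91 ± 0.12). The counts and the size of the change depended on scaling. On equal totals 61 were lower. After quantile normalization 29 were lower and 10 higher, with a median that was still negative, at -0.14. Rpl5 and Rps29 were listed at 0 in all 5 libraries, so a 0 in this table can be a failed estimate. Ribosome biogenesis genes were 17 lower and 4 higher of 30 (median -0.38; on equal totals 8 lower, 10 higher and a median of 0.00), with Gar1, of the snoRNP that modifies rRNA, at 132, 149 and 129 in KO adults and 297 and 280 at KO 3 dpp (-1.08 ± 0.12).

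Oxidative phosphorylation genes were lower for 50 of 65 and higher for none (median -0.54), a split that became 24 lower and 7 higher on equal totals and 26 lower and 8 higher after quantile normalization. Ndufv1 of complex I (-1.09 ± 0.14), Cox7b of complex IV, on the X (-1.93 ± 0.18), and Atp5j of ATP synthase (-0.92 ± 0.09) were among the clearest. Glycolytic genes had a median of -0.75, with 12 of 18 lower and 1 higher. Pkm, pyruvate kinase, had 228, 249 and 215 in KO adults, against 1077 and 1064 at KO 3 dpp (-2.21 ± 0.19), and Aldoa, aldolase, had 312, 277 and 261, against 897 and 935 (-1.69 ± 0.11). Slc2a1, the glucose transporter GLUT1, changed by -1.72 ± 0.19, and Hk1, a hexokinase, by 0.99 ± 0.20. Without library 18, 2 glycolytic genes were higher, and on equal totals 3 were. Of 27 sterol and fatty acid synthesis genes, 12 were lower and 6 higher (median -0.24; 0.13 on equal totals): Elovl6, a fatty acid elongase, had 3.98, 3.08 and 3.12 in KO adults, against 40.1 and 44.8 at KO 3 dpp (-3.31 ± 0.25), and Fasn, fatty acid synthase, had 231, 224 and 251.4, against 137 and 141 (0.75 ± 0.10).

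The mTOR pathway, to which Akt1s1 belongs, had no shared direction with age in KO cells: 23 of 48 genes were higher and 16 lower, with a median of 0.07, and on equal totals 25 were higher and 8 lower. Of 10 subunits of mTORC1 and mTORC2, 4 were higher, 2 lower and 4 not called, with a median of -0.02. Among the higher ones, Mtor, the kinase, had 112, 104 and 106 in KO adults, against 59.9 and 55.1 at KO 3 dpp (0.89 ± 0.09, adjusted p = 2.5e-06). Rptor, which defines mTORC1, had 41.7, 41.4 and 36.8, against 24.7 and 22.6 (0.73 ± 0.11). Upstream, Akt1 had 158, 163 and 181 in KO adults, against 77.7 and 69.9 at KO 3 dpp (1.17 ± 0.12), Pdpk1, which activates AKT, changed by 1.55 ± 0.19, and Pik3ca by -0.88 ± 0.15. Of 11 inhibitors 8 were higher and 2 lower, with Tsc1 (0.73 ± 0.12), Tsc2 (0.57 ± 0.07) and Nprl2 (1.19 ± 0.18) higher and Sesn1 lower (-0.65 ± 0.11). Lysosomal anchor and GTPase genes went both ways, with Lamtor1 at -1.06 ± 0.14 and Lamtor3 at 0.92 ± 0.17. Among substrates, Eif4ebp1, the translation repressor, had 244, 277 and 254 in KO adults, against 495 and 443 at KO 3 dpp (-0.86 ± 0.13), and Ulk1, which starts autophagy, changed by 0.81 ± 0.09. Grb10, an imprinted adaptor and mTORC1 substrate, changed most, with 107, 93.8 and 113 in KO adults, against 7.26 and 13.9 at KO 3 dpp (3.25 ± 0.40).

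Genes of fetal and neonatal germ cells were lower for 7 of 13 and higher for 3 (median -0.66). Dppa4, a pluripotency-associated chromatin protein, had 21.0, 20.3 and 16.7 in KO adults, against 108 and 102 at KO 3 dpp (-2.39 ± 0.14, adjusted p = 1.6e-07), and Dppa2 and Dppa5a changed by -2.29 ± 0.39 and -1.33 ± 0.15. Dppa3 was listed at 0 in both KO 3 dpp libraries and had 12.0, 10.5 and 13.2 in KO adults. Imprinted genes were lower for 14 of 23 and higher for 5 (3 without library 18), with a median of -0.85 that was -0.45 without library 18. Mest had 11.9, 12.4 and 12.0 in KO adults, against 135 and 130 at KO 3 dpp (-3.35 ± 0.27), Snrpn changed by -2.35 ± 0.27, and H19 and Igf2, neighbours on chromosome 7, by -1.37 ± 0.17 and -1.25 ± 0.23. Of 7 DNA methylation genes, Dnmt3b (1.31 ± 0.13) and the demethylase Tet3 (1.99 ± 0.15) were higher and Uhrf1, the cofactor of DNMT1, was lower (-0.69 ± 0.14). Uhrf1 was the only one lower, and without library 16 there were 2. The shares of all genes tested were 32.3% higher and 27.5% lower.

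The piRNA pathway, which silences transposons in germ cells, was split, with 9 of 24 higher and 11 lower. Gtsf1, a PIWI cofactor, had 123, 119 and 94.4 in KO adults, against 291 and 319 at KO 3 dpp (-1.44 ± 0.11), and Asz1 and Mael changed by -0.78 ± 0.09 and -0.59 ± 0.10, while the tudor genes Tdrd7 and Tdrd9 each changed by 0.90, with errors of 0.08 and 0.17. The median was 0.03 and took either sign among alternatives. Of 17 immediate early and stress genes, 12 were lower and 2 higher (median -0.998), but 8 were lower without library 11, 5 without library 18 and 5 on equal totals. Egr2 had 4.03, 2.78 and 4.12 in KO adults, against 77.8 and 72.4 at KO 3 dpp (-4.05 ± 0.35), and Egr1 changed by -2.56 ± 0.20. Hspa1a and Hspa1b, heat shock genes with near-identical copies, were the 2 higher.

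Markers of other testis cells differed between the groups and between libraries. Of 17 Sertoli genes tested, 15 were lower in KO adults and none higher (median -2.12), and all 17 were higher in library 18 than in library 16. Amh, the hormone of immature Sertoli cells, had 1.14, 0.936 and 0.861 in KO adults, against 55.8 and 277 at KO 3 dpp (-5.99 ± 0.48), the lowest change of any gene named by rule. Rhox8, a Sertoli homeobox gene, had 1.86, 1.13 and 1.08 in KO adults, against 18.9 and 44.3 at KO 3 dpp (-3.69 ± 0.36). The Sertoli sum was 195, 93.7 and 147 in KO adults, against 382 and 1444 at KO 3 dpp, and without library 18 the median was -1.23. Gdnf and Kitl, the ligands that Sertoli cells give to the germ cells, were lower too, at signals of at most 1.35 in KO adults and 2.19 to 9.85 at KO 3 dpp (-1.26 ± 0.29 and -1.81 ± 0.35). Over the whole niche list, 11 of 25 genes were lower and 6 higher, with a median of -0.37. Among all genes tested, 27.5% were lower and 32.3% higher.

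Leydig genes were split, 3 higher and 2 lower of 10, and rested on single libraries. These counts were near the shares of all genes tested, 32.3% higher and 27.5% lower. Insl3, the Leydig hormone, had 2626, 71.2 and 1096 in KO adults, against 14.2 and 19.8 at KO 3 dpp (5.06 ± 1.62, adjusted p = 0.016), and it was not called without library 10, 16 or 18. The Leydig sum was 3073, 90.0 and 1332 in KO adults, against 55.0 and 201 at KO 3 dpp. Without library 10, 16 or 18 only 1 Leydig gene was higher, and without library 11 or 18 only 1 was lower. Of 10 macrophage genes 6 were higher (median 2.40), but 2 without library 10 and 1 without library 18, with medians of 1.65 and 1.00. Cd74, an antigen presentation gene, had 63.8, 4.39 and 34.8 in KO adults, against 0.958 and 1.79 at KO 3 dpp (3.31 ± 0.73). The macrophage sum was 506, 61.3 and 199 in KO adults, against 92.3 and 28.4 at KO 3 dpp. Endothelial genes were lower for 4 of 6, stromal fibroblast genes for 5 of 8 (2 without library 16) and peritubular myoid genes for 4 of 7 with 2 higher (1 without library 18), all at low signals. Of the erythroid genes only Alas2 was tested and it was not called (-0.14 ± 0.33), and the globin genes reached 13.9 in library 18 and 0.789 in the other libraries. How much these cells add to the germ cell results was not tested.

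The 12 genes with the highest changes were mainly sperm genes: beside Prm2, Prm1, Tnp2 and Smcp they were Crisp2, Plaat5, Spz1, Spata4, Hmgb4, Tbx1, Irgc1 and Fhl4, with changes from 6.12 for Crisp2 to 5.27 for Fhl4. Tbx1, a T-box factor, stood apart because library 10 was its lowest adult, with 157, 174 and 199 in KO adults, against 5.62 and 2.03 at KO 3 dpp (5.30 ± 0.46), and because it had 62.7, 13.9 and 22.8 at KO 7 dpp. The 12 lowest were Amh, Nefm, Ccn1, Sez6, Nxph4, Etv5, Lhx1, Smim22, Gfra1, Lgals7, Tcl1 and Etv4. Nefm, a neurofilament, had 1.01, 1.10 and 1.22 in KO adults, against 129 and 73.7 at KO 3 dpp (-5.55 ± 0.64), and Tcl1, an AKT coactivator, had 5.16, 5.75 and 2.14, against 115 and 129 (-4.60 ± 0.47). Ccn1, a matrix protein, had at most 1.80 in KO adults, against 24.0 and 203 at KO 3 dpp (-5.25 ± 0.63), with library 18 again above library 16.

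The change with age in KO cells was then set against that in WT cells. Of 16487 genes, 194 (1.18%) differed between the genotypes in their adult minus 3 dpp change, 141 with a higher change in KO (0.855%) and 53 with a lower one (0.321%), and 3011 had an unadjusted p under 0.05 (18.3%). In 180 of the 194 the KO minus WT gap was larger at 3 dpp than in adults. The share among all genes tested was not computed, so 180 cannot be read as particular to the called genes. The count of 194 was unstable. Leaving out each of the 10 libraries of these ages in turn gave 13 to 567 genes. There were 383, 33 and 17 without KO adult library 10, 11 or 12, and 567 and 32 without KO 3 dpp library 16 or 18. There were 13 and 25 without WT adult library 7 or 9, and 51, 24 and 107 without WT 3 dpp library 13, 14 or 15. Of the lists above, medians were near those of WT for undifferentiated genes. Medians were lower in KO for replication histones (-1.71 in KO and -0.78 in WT) and ribosomal proteins (-0.91 and -0.54). Lists with lower KO medians also included elongating spermatids (4.47 and 5.64), macrophages (2.40 and 4.57) and Leydig cells (0.91 and 1.94). Other lists had higher KO medians, such as meiotic prophase (0.40 and 0.16). Elongating spermatid sums were 6839, 3312 and 3283 in KO adults, against 14940 and 6954 in WT adults. The difference of list medians was not tested. Deposited totals at 3 dpp were higher in KO (1183294 and 1178330) than in WT (1022969, 1002649 and 1086085). Adult totals were 896543 to 917815 in KO, and 902132 and 913023 in WT. On equal totals 1109 genes differed between the genotypes, against 194 on the deposited scale. The cause of the unequal totals was not tested.

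Meiotic genes were among those that changed more with age in KO cells. Meioc had 60.1, 76.1 and 86.5 in KO adults and 6.34 and 6.83 at KO 3 dpp, against 61.3 and 43.0 in WT adults and 14.7, 19.3 and 13.3 at WT 3 dpp (difference of changes 1.64 ± 0.31, adjusted p = 0.0357). The difference lay mostly at 3 dpp, where the KO libraries were lower than all WT libraries. Smc1b had 116 and 114 at KO 3 dpp, against 152, 182 and 157 at WT 3 dpp (0.85 ± 0.12), and Sycp1 had 120 and 99.0, against 177, 163 and 191 (0.96 ± 0.15), and Sycp2, also of the synaptonemal complex, 27.97 and 26.0, against 48.0, 44.5 and 46.4 (1.10 ± 0.19). The mitotic genes Mki67 (0.92 ± 0.19), Cenpe (0.85 ± 0.14), Cenpf (0.80 ± 0.14) and Knl1 (1.40 ± 0.21) had the same sign, and their 3 dpp values were lower in KO than in every WT pup. Of these, Knl1 and Smc1b were called in 8 of 10 leave-outs, Sycp1 in 6, Cenpe in 5, and Meioc, Sycp2, Mki67 and Cenpf in 3. In these leave-outs limma's adjusted p of Meioc lay between 0.0278 and 0.111. All differences in this paragraph are without removal of the length trend. With that trend removed, 119 genes differed between the genotypes, against 194 in the main fit.

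Outside the lists, Slc39a9, a zinc transporter, had 28.1, 29.5 and 32.8 in KO adults and 14.1 and 8.99 at KO 3 dpp, against 25.9 and 23.8 in WT adults and 30.4, 29.7 and 27.6 at WT 3 dpp (1.57 ± 0.22, adjusted p = 0.0105), and it was called in all 10 leave-outs. Lpl, lipoprotein lipase, was low in all 5 KO libraries (1.40 to 2.38), against 3.60 and 1.29 in WT adults and 16.1, 19.8 and 15.9 at WT 3 dpp (2.51 ± 0.39, called in 7 of 10). Amd2 had 21.8, 15.5 and 34.1 in KO adults and was listed at 0 in both KO 3 dpp libraries, against 17.4 and 18.2 in WT adults and 23.8, 21.9 and 30.3 at WT 3 dpp; it is a near-identical copy of Amd1, so its values are uncertain. Gsg1, which is in the elongating spermatid list, went the other way (-2.37 ± 0.51) and was called in 1 of 10 leave-outs. Its signal was 160, 70.2 and 77.4 in KO adults and 4.18 and 4.05 at KO 3 dpp. WT adults had 323 and 152, and WT 3 dpp pups had 1.88, 0.892 and 1.18. Ncf1, a phagocyte oxidase subunit (-2.38 ± 0.51), Dbil5, a testis acyl-CoA-binding protein (-1.59 ± 0.34), Hoxb2 (-2.06 ± 0.43), Cdc42ep3 (-1.96 ± 0.40) and Ndrg2 (-1.79 ± 0.38) were called in 2 or 3 of 10, and Fgf11 (2.43 ± 0.50), a growth factor homologue, in 3.

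**Figure D5:**
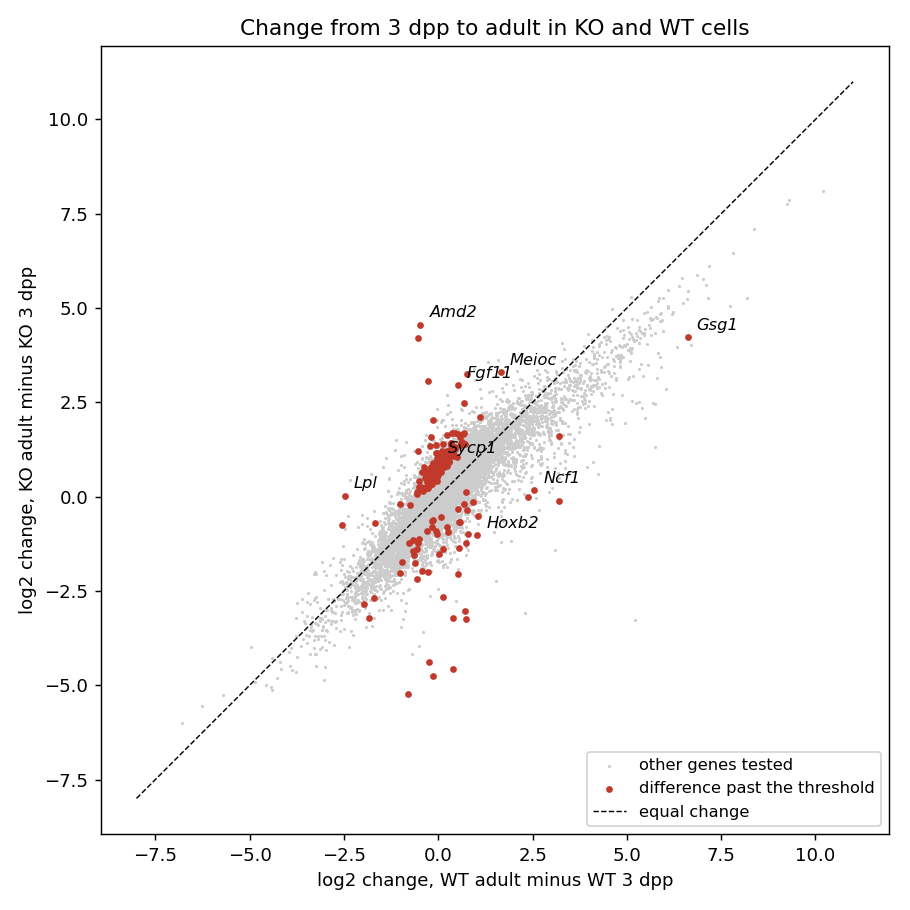
Log2 change with age (adult minus 3 dpp) in KO on the y axis against WT on the x axis, 1 point a gene, with genes called for a difference between the genotypes coloured. Of the 194 called genes, 141 lie above the dashed line of equal change, such as Amd2 (4.56 in KO, -0.47 in WT) and Meioc (3.29 in KO, 1.66 in WT).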

How the data were processed

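RNA was sequenced from sorted testis cells. Per the labels' protocols it was isolated with a Tiangen kit and made into mRNA libraries with a Vazyme kit. The submitters' processing notes name Trim Galore, kallisto, DESeq2 and mm10, with no versions. The authors deposited 1 signal value per gene and library. In each library the deposited values above 0 and below 1, rescaled to the same total as TPM, were whole multiples of 0.01 TPM within 0.0006. Values of 1 or more were not checked. All values are therefore taken as length-corrected values times 1 factor per library, and depth is unknown.

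From these, log2(signal + 1) was fitted in limma 3.58.1 (R 4.3.3) with an intensity trend over all 15 libraries in 6 groups (9 residual degrees of freedom), because the values were not counts. Benjamini-Hochberg adjustment ran over the 16487 genes kept, with a threshold of 0.05. On simulated data the fit recovered 75 of 100 genes changed 1 log2 unit and 96 of 100 changed 2 units, with 7 false calls among 16487 genes. The changed genes had a mean log2(signal + 1) at or above that of a signal of 5. Noise was drawn for each gene and library on its own, and few genes were changed, against 59.9% called in the data. These rates therefore do not cover low signals or shifts shared by many genes.

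The members and gene lists were chosen with earlier results of these data known. The text names Akt1s1 and Pou5f1; 12 called genes at each end of the change with age, given a mean signal of 5 or more and no overlap; up to 4 members of each list in each direction by p, plus members given as values; both copies of pairs; and the 6 highest and 6 lowest genotype differences. Alternatives were another pseudocount (0.1), filters, equal totals, quantile normalization, no trend, a length correction, smaller fits and leaving out each library. RefSeq promoters were GRCm38.p6. Listed genes without a row were not analysed here.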

Additional observations from a re-analysis of the deposited data

Results flagged for a closer look

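For 19 of the genes named, the change with age differed between KO and WT cells in limma's test of the difference itself, and the values are KO minus WT differences of log2 changes. The change was higher in KO for Amd2 (5.04), Lpl (2.51), Fgf11 (2.43), Meioc (1.64), Slc39a9 (1.57), Knl1 (1.40), Sycp2 (1.10), Sycp1 (0.96), Mki67 (0.92), Cenpe (0.85), Smc1b (0.85) and Cenpf (0.80). It was lower in KO for Ncf1 (-2.38), Gsg1 (-2.37), Hoxb2 (-2.06), Cdc42ep3 (-1.96), Ndrg2 (-1.79), Dbil5 (-1.59) and Gtsf1 (-0.77). Amd2 and Slc39a9 were called whichever of the 10 libraries was left out, and the others lost the call without at least 1 library. The larger gap lay at 3 dpp for 180 of the 194 genes called, and the share among all genes tested was not computed. KO 3 dpp had 2 libraries, of which library 18 had more Sertoli cell signal than library 16, and the part of that in these differences was not tested.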

How the results depend on the processing

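Each result was recomputed under the alternatives. On equal library totals, 8082 genes were higher in KO adults and 2578 lower, and 1109 differed between the genotypes. The genotype difference counted 320 genes at a mean signal of 5 or more, 33 without the intensity trend, 119 with the length trend removed and 123 when only the 10 libraries of these ages were fitted, and 13 to 567 with 1 library left out. The count of 9870 genes changed with age was 8416 to 9307 with 1 of the 5 KO libraries left out and 9659 to 9994 with 1 WT library of these ages left out. Of the list counts, 724 stayed within 1.5 times and 60 did not. Of the list medians, 304 stayed close, 79 moved and 9 changed sign: the piRNA pathway (-0.14 with the length trend removed, -0.084 without KO adult library 10, -0.021 without KO 3 dpp library 16, with 0.072 as the highest value when 1 library was left out), DNA methylation (0.23), niche factors (0.0041), ribosome biogenesis (0.0022) and sterol and fatty acid synthesis (0.13) on equal totals, and myoid (0.58) and fibroblast genes (0.050) at a mean signal of 5 or more. The cause was not tested. No paired analysis was possible because the groups compared share no replicate numbers. Unknown depth limits what can be said of low values. Single genes changed sign on equal totals for Alas2 (0.11), Foxo1 (0.38), Hormad1 (0.19), Ldha (0.34), Pgk1 (0.34), Plk1 (0.27), Tex12 (0.17), Uchl1 (0.35) and Zbtb16 (0.36); after quantile normalization for Ddx4 (0.10), Foxo1 (0.0877), Lpl (-0.25), Msh5 (-0.18), Ncf1 (-0.11), Plk1 (0.0448), Uchl1 (0.84) and Zbtb16 (0.0284); with the length trend removed for Ldha (0.0381), Lpl (-0.12), Msh5 (-0.00446) and Uchl1 (0.0381). With 1 library left out, the log2 change crossed 0 for Foxo1 (-0.19 to 0.18), Hormad1 (-0.38 to 0.00674), Ldha (-0.50 to 0.43), Lin28a (-0.044 to 0.10), Lpl (-0.22 to 0.27), Msh5 (-0.0734 to 0.15), Ncf1 (-0.14 to 0.46), Top2a (-0.0202 to 0.0594), Uchl1 (-0.14 to 0.0644) and Zbtb16 (-0.30 to 0.27). Of these only Ddx4 was called on the deposited scale.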
